A study of Mus musculus with 6 samples.

Results

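Binding of Ikaros, a zinc finger transcription factor and the product of Ikzf1, was mapped by chromatin immunoprecipitation with sequencing (ChIP-seq) in mouse natural killer (NK) cells, and the account below concerns sites far from genes. A distal peak was defined as one whose smallest distance to an annotated gene was over 1 kb and for which the authors named at least 1 protein-coding gene as nearest. Overlapping distal peaks of the 3 wild type lists were merged, which left 256 distal regions of 2526 regions in all, built from 397 of 4111 peaks. No region mixed distal and other peaks. Distance and biotype chose the members, and peak strength, sharing between lists and peak width were not used.

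The series compared WT NK cells with NK cells that lost Ikzf1 under a conditional allele tied to NKp46, the receptor encoded by Ncr1, with 3 libraries in each group. NK cells of both groups came from spleen and were grown in culture with IL-15 at 50 ng/ml, so they are expanded cells and not cells fresh from the animal. Chromatin was fixed in 2% formaldehyde, sheared to 100 to 200 bp and precipitated with 2 µg of an antibody against Ikaros. The 3 WT lists were used and KO libraries were not analysed here, so no comparison of WT with KO was made. Which control library stands behind the authors' fold enrichments, and whether it was a KO library, is not given in the sources at hand. Whether the WT replicates are separate mice or cultures is not in the labels, and p-values over lists may measure technical spread only. Peak lists hold no expression values, so NK identity could not be checked against marker genes.

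Ikaros binds DNA through zinc fingers that read a short GGGAA core, and it partners with relatives such as Aiolos, encoded by Ikzf3. It recruits chromatin remodelling and corepressor complexes in lymphocytes and is known both for silencing and for maintaining lymphoid genes. Sites away from promoters are often enhancers, but a peak far from a gene need not act on the gene that lies nearest.

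Sequence was at hand only where a distal region reached into a RefSeq start window, which runs from 250 bases before to 50 bases after a gene's start. Among the 250 distal regions on chromosomes with such windows, 6 (2.40%, 95% Clopper-Pearson interval 0.886 to 5.15) overlapped one. All 6 lay at the start of a long noncoding RNA gene rather than of the coding gene that names the region. Of these regions, 4 are printed from the RefSeq table (GRCm38.p6, the same assembly as mm10), each trimmed to the part inside the region and written 5′ to 3′ on the strand of the transcript. They were chosen as the region found in all lists, the one found in 2 lists, the one covering a whole window, and the one beside the NK signalling gene Tyrobp. Capitals mark the Ikaros core GGGAA or its reverse complement TTCCC.
Stim2 region, start of Gm30601, chr5:53995266-53995300, plus strand: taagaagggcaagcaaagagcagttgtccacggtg
Spen region, start of B330016D10Rik, chr4:141545920-141546211, plus strand: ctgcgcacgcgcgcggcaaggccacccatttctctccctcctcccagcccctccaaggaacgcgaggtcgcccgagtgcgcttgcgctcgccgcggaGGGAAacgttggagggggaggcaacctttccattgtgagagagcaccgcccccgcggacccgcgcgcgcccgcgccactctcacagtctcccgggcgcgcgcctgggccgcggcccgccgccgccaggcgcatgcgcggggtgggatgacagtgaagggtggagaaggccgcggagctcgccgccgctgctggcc
Arid1b region, start of Gm34507, chr17:4908072-4908371, plus strand: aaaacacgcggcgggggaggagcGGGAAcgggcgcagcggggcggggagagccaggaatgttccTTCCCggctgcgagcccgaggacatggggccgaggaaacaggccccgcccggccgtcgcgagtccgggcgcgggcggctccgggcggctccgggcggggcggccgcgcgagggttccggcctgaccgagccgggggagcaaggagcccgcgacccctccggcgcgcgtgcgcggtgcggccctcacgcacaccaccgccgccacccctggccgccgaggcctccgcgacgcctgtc
Tyrobp region, start of Gm42376, chr7:30394759-30394907, minus strand: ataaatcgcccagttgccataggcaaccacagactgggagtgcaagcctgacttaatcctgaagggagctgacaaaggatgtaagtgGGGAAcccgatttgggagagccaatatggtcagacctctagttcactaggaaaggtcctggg
The stretch at Stim2 held 0 core words, the one at Spen 1, the one at Arid1b 2 and the one at Tyrobp 1. The core on either strand was present in 62.7% of all 32851 RefSeq start windows, in 68.7% of the 1288 windows at other Ikaros regions and in 5 of the 7 windows at distal regions. These 7 windows stand for 6 regions, since the Tyrobp region meets overlapping start windows of Gm42376 that hold the same core. A word this common says little about a single window, and its absence from the short stretch at Stim2 says only that the letters are not in those 35 bases.

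Distal peaks numbered 62 of 685 in replicate 1 (9.05%), 230 of 2084 in replicate 2 (11.04%) and 105 of 1342 in replicate 3 (7.82%), whose list is numbered 4 in the deposited data and was matched by the sample's description. The mean share was 9.30% ± 1.62 (SD, n = 3 lists). Replicate 2 held the most peaks and also the largest distal share. In all 3 lists most peaks lay over a coding gene. The fold enrichment of a peak is the authors' value, given per peak within its own list, and was used only to describe and rank peaks inside that list. Among distal peaks it ranged from 2.38 to 46.4 in replicate 1, from 2.25 to 85.2 in replicate 2 and from 2.39 to 57.9 in replicate 3. A percentile below is the rank of a peak's fold enrichment among all peaks of its list, with 100 for the strongest. The lists differ in length. Of peaks that were not distal, 90.5%, 50.8% and 74.5% were found in another list in replicates 1, 2 and 3. A percentile therefore need not stand for the same strength in each list, and means of percentiles carry the same limit.

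Of the 256 regions, 39 were found in all 3 lists, 62 in exactly 2 and 155 in only 1. Most regions seen once came from the longest list, with 131 from replicate 2, 18 from replicate 3 and 6 from replicate 1. Replicates 2 and 3 alone shared 46, replicates 1 and 2 alone shared 14 and replicates 1 and 3 alone shared 2. Where a region was called in 2 lists the peak midpoints lay a median of 33 bp apart, and in 3 lists 59.5 bp. Across the regions that 2 lists share, fold enrichment ranked alike, with Spearman's rho of 0.636 over 53 regions for replicates 1 and 2, 0.836 over 41 for replicates 1 and 3 and 0.802 over 85 for replicates 2 and 3. These correlations are across regions that both lists called, which share sequence and mappability, and regions are not independent replicates. Without replicate 2 the number of distal regions was 125 in place of 256, and the number in 2 or more lists 41 in place of 101. Without replicate 3 the latter number was 53.

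**Figure D1:**
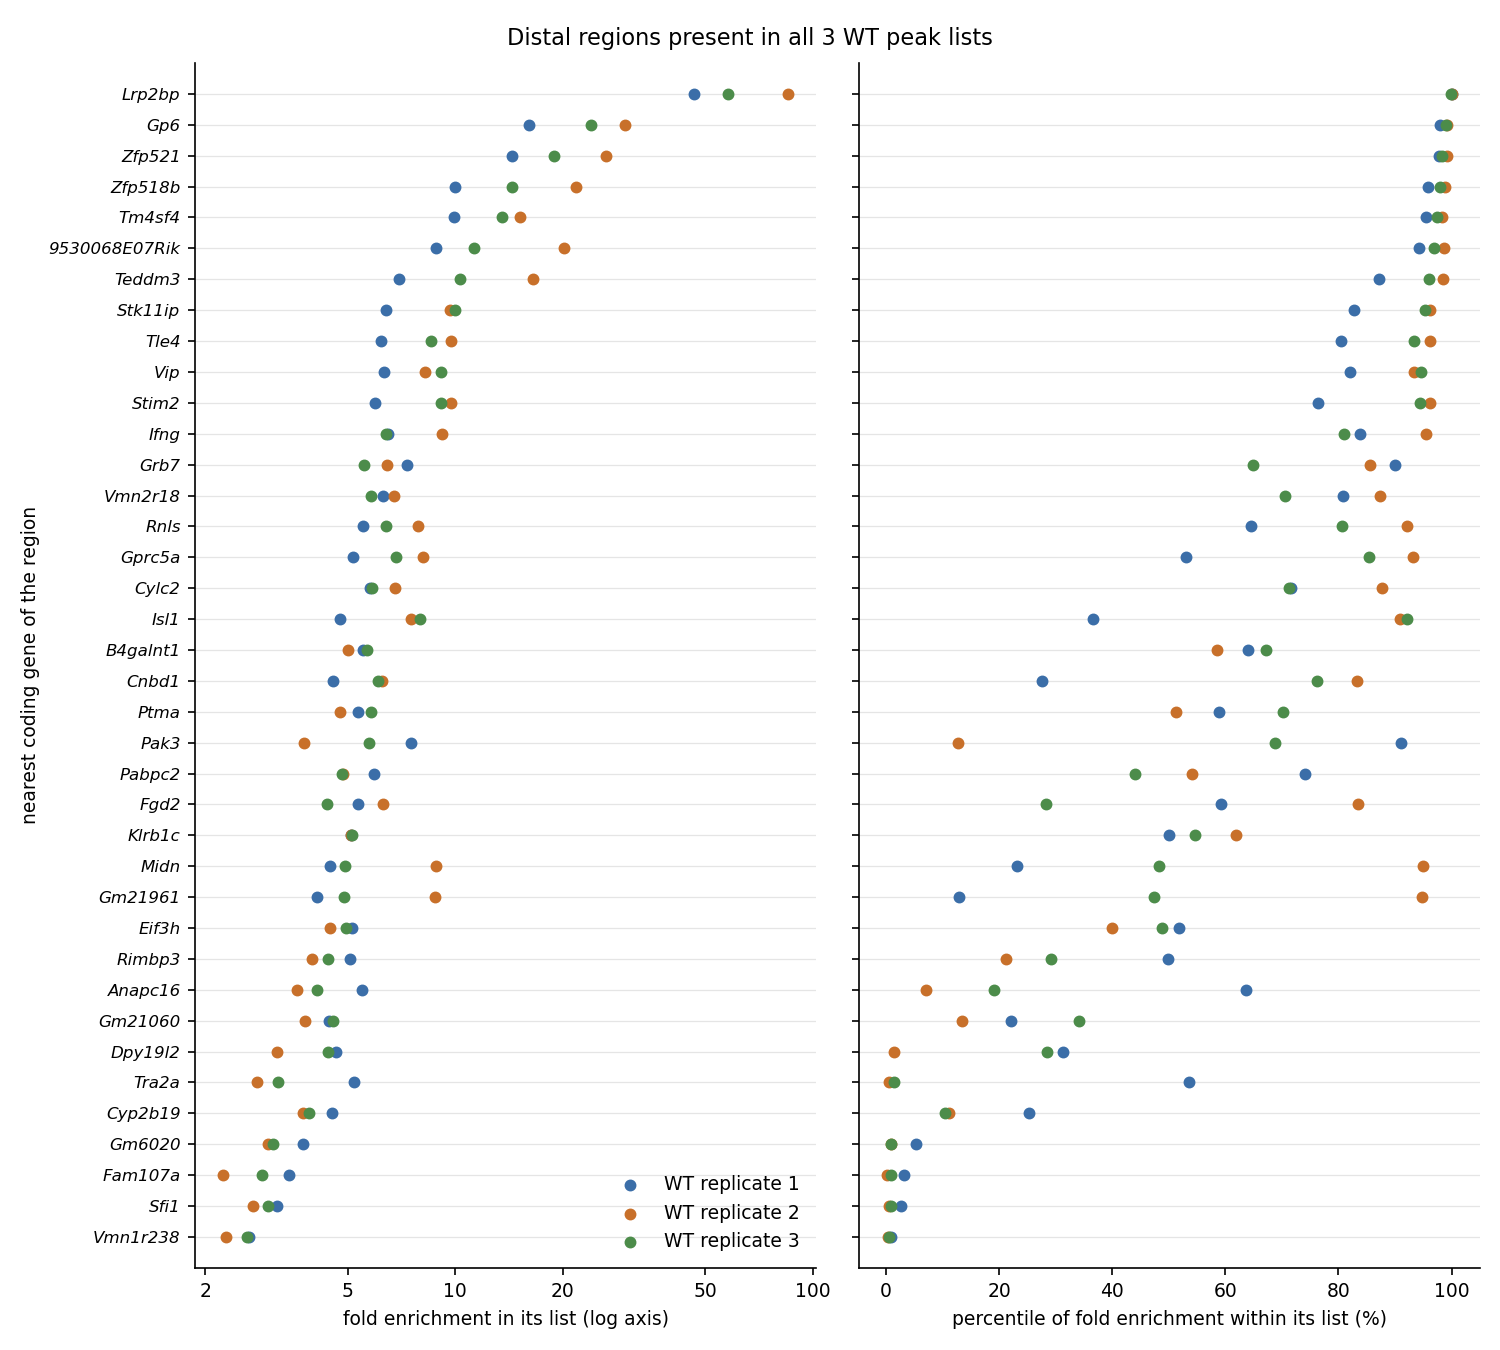
Fold enrichment on a log axis (left) and percentile of fold enrichment within the list (right) of 38 of the 39 distal regions found in all 3 WT lists. Each row is named for the coding gene the authors gave as nearest, and each point is 1 list. The region by Lrp2bp stood at percentiles of 99.9 to 100 in every list, and the 4 regions at the foot of the plot lay below percentile 6 in every list.

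The strongest distal region lay 1.23 kb past the 3′ end of Lrp2bp, which encodes a protein that binds the endocytic receptor megalin (chr8:46030703-46031613). Its fold enrichment was 46.4, 85.2 and 57.9 in replicates 1, 2 and 3. It was the strongest peak of any class in replicates 1 and 2, and stood at percentile 99.9 in replicate 3. Snx25, a sorting nexin gene, lay 1.65 kb from it on the other side, so the region sits in a short gap between 2 genes.

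The region second in mean rank lay between Ncr1 and Gp6 (chr7:4354884-4355498). Ncr1 encodes NKp46, the activating receptor that marks NK cells and the gene to which the conditional deletion of the series is tied, and Gp6 encodes the collagen receptor of platelets. Fold enrichment was 16.0, 29.8 and 24.0 in replicates 1, 2 and 3, at percentiles of 98.0, 99.3 and 99.0. The authors' rows name Gp6, at 8.47 kb. In the RefSeq table the region lies past the 3′ ends of both genes, 9.70 kb from Ncr1 and 7.36 kb from Gp6. The map of this locus shows no other peak within 40 kb.

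Regions named for 2 zinc finger genes came next. The one nearest Zfp521, a transcription factor of stem and progenitor cells, lay 165 kb away and had fold enrichments of 14.4, 26.4 and 18.9, at percentiles of 97.8, 99.1 and 98.4. The one 11.3 kb past Zfp518b had values of 9.99, 21.7 and 14.4, at percentiles of 95.8, 98.8 and 97.9. Both stood in the top 5% of every list. The next 2 regions, at Tm4sf4, a tetraspan membrane protein gene, and 9530068E07Rik, had percentiles of 95.5, 98.4 and 97.5 and of 94.3, 98.7 and 96.9.

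The region by Ifng, the gene of interferon gamma and the signature cytokine of NK cells, was the one region in all lists that belongs to the effector genes (chr10:118419071-118419430). It lay 21.6 kb upstream of the gene. Fold enrichment was 6.49, 9.18 and 6.40 in replicates 1, 2 and 3, and the percentiles were 83.8, 95.5 and 81.0. It stood among the 15 strongest distal regions of replicates 1 and 2. The nearest coding gene on its other side, Iltifb, was 124 kb away.

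Among the other regions of the 15 highest by mean percentile of those in all lists were the ones by Stim2, Stk11ip and Tle4. Stim2 encodes a calcium sensor of the endoplasmic reticulum that opens store-operated calcium channels. Its region, 2.83 kb upstream of the gene and printed in part above, had fold enrichments of 5.97, 9.76 and 9.11 at percentiles of 76.4, 96.2 and 94.5. Stk11ip, a partner of the kinase LKB1, had a region 3.34 kb upstream at percentiles of 82.8, 96.1 and 95.4. Tle4, a Groucho family corepressor, had a region 160 kb past its 3′ end at percentiles of 80.4, 96.2 and 93.4, and a second at 95.3 kb, in replicate 2 only at percentile 28.8. The regions by Stim2 and Stk11ip and the farther one of Tle4 ranked lower in replicate 1, the shortest list, than in the other lists.

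The region named for Grb7, an adaptor of receptor tyrosine kinases, lay between that gene and Ikzf3 (chr11:98457828-98458443). It lay 2.45 kb from Grb7 and 6.17 kb from Ikzf3, which encodes Aiolos, and in the RefSeq table it overlapped the 5′ edge of the span given for Mien1, whose start window in that table lies elsewhere. Fold enrichment was 7.34, 6.43 and 5.55, and the percentiles were 90.1, 85.5 and 64.8 in replicates 1, 2 and 3. The remaining members of the 15 highest among regions in all lists were named for Teddm3, Vip, Vmn2r18 and Rnls. Their mean percentiles ran from 93.9 at Teddm3 to 79.1 at Rnls. Vip is a neuropeptide gene, Vmn2r18 a vomeronasal receptor gene, and Rnls encodes renalase. The authors' distances to these genes were 149, 50.8, 44.9 and 35.4 kb. In the RefSeq table another coding gene lay closer to the regions of Teddm3 and Vip, Gm6557 at 58.0 kb and Gm40595 at 22.5 kb.

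Of the 39 regions in all lists, 8 stood above percentile 90 in replicate 1, 17 in replicate 2 and 12 in replicate 3, while 4, 7 and 5 stood below percentile 10. These percentiles come from lists of unequal length, and how far that shapes the counts was not tested. The median fold enrichments of the 39 regions were 5.49, 6.74 and 5.75, which are above those of all distal peaks in each list. Some changed rank by fold enrichment between lists. The region 35.3 kb upstream of Pak3, a p21-activated kinase gene, stood at percentile 91.1 in replicate 1, 12.7 in replicate 2 and 68.7 in replicate 3. Its −log10 q was high in every list, at 32.9, 14.1 and 24.4, against medians of 4.67, 4.23 and 4.70 for distal peaks. The region 1.37 kb past Midn, the midnolin gene, stood at percentiles of 23.2, 94.96 and 48.2. The one upstream of Isl1, a LIM homeodomain factor gene, stood at 36.6, 90.9 and 92.1, and the one nearest Gm21961 at 12.8, 94.9 and 47.3.

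The 15 highest distal regions of each single list were mostly those found everywhere, 14 in replicate 1, 13 in replicate 2 and 12 in replicate 3, and none was found in 1 list only. The exceptions, found in 2 lists, were named for Igsf23 in replicate 1, Tinagl1 and Ankrd16 in replicate 2, and Tmem225, Fam46a and Arl8b in replicate 3. The Ankrd16 region lay 146 kb from that gene, and in the RefSeq table the coding gene Gm34768 lay 19.5 kb from it. Arl8b encodes a small GTPase of lysosome transport. Its region lay 2.60 kb away and had fold enrichments of 5.07 in replicate 2 and 6.98 in replicate 3, at percentiles of 60.4 and 87.0. Fam46a encodes a non-canonical poly(A) polymerase, now named Tent5a, and its region had values of 8.60 and 6.98 in the same lists.

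At the other end, 6 of the 101 regions in 2 or more lists had a mean percentile under 5, and 4 of these were in all lists. They were named for Sfi1, Fam107a, Gm6020 and Vmn1r238, and a pair near Polr3k was found in replicates 1 and 3 only. At Sfi1 the fold enrichments were 3.17, 2.71 and 3.00 and the peaks were 1340, 2656 and 3650 bp wide. At Vmn1r238 they were 2.65, 2.29 and 2.62, at percentiles of 0.876, 0.384 and 0.596. These regions recurred at low fold enrichment. By RefSeq, 0 coding genes lay between the Vmn1r238 region and that end of its chromosome, and 2 lay beyond each of the Polr3k regions.

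The authors' distance from a region to its gene ranged from 1.02 to 516 kb with a median of 10.8 kb. It was 10 kb or less for 124 regions (48.4%) and over 50 kb for 39 (15.2%). The median was 9.99 kb for regions in 1 list, 9.08 kb for those in 2 and 17.7 kb for those in 3. Regions in all lists thus lay farther out in the median, but the ranges between quartiles overlap, at 3.93 to 22.9 kb, 4.02 to 21.2 kb and 8.93 to 42.0 kb, and the difference was not tested. Distance and mean percentile showed little rank relation over the 256 regions (Spearman's rho 0.0323, given as a description). The distal regions just over the 1 kb limit lay 1021 bp from Fam46a, 1063 bp from Lrch1 and 1083 bp from Tmem44. Peaks just under it, which were not counted as distal, lay 980 bp from Ier2, 891 bp from Zc3h4 and 883 bp from Pdk2.

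**Figure D2:**
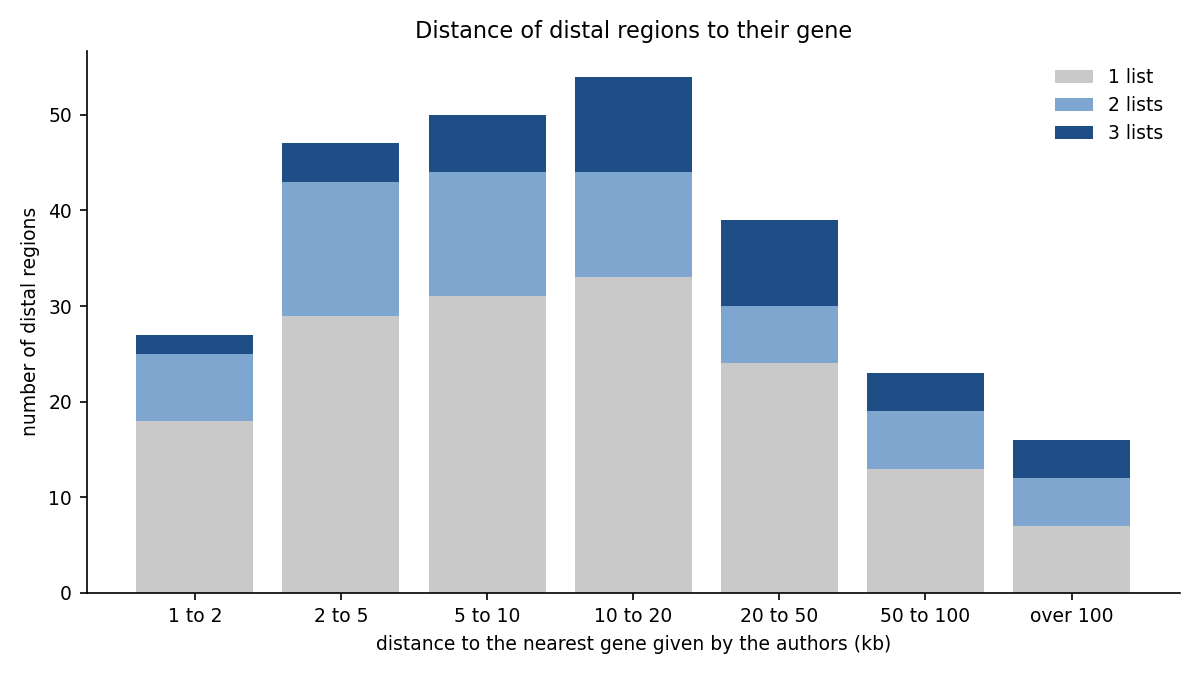
Number of distal regions by the distance in kb to their nearest gene, as the authors gave it, with shades for the number of WT lists that hold the region. The bin from 10 to 20 kb holds 54 regions, the most of the 7 bins, and 16 regions lie beyond 100 kb.

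Among regions in all lists, those by Lrp2bp, Midn, B4galnt1, Grb7 and Stim2 lay nearest to their gene, at 1.23, 1.37, 2.05, 2.45 and 2.83 kb. B4galnt1 encodes the enzyme that makes GM2 and related gangliosides, and its region had fold enrichments of 5.51, 5.00 and 5.65. Those named for Zfp521, Tle4, Teddm3, Vmn1r238 and Pabpc2 lay farthest from the gene the authors named, at 165, 160, 149, 116 and 55.7 kb. Of these 10 regions, the one by Vmn1r238 had the lowest fold enrichment and the one by Lrp2bp the highest in every list.

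The side of the gene could be told for 182 distal regions whose gene had a strand in the RefSeq windows and whose bases all lay outside its span. Of these, 96 (52.7%, 45.2 to 60.2) lay on the 5′ side and 86 on the 3′ side. Regions 1 kb or less from a coding gene, the class just short of the limit, lay on the 5′ side in 100 of 108 cases (92.6%, 85.9 to 96.7). The odds ratio was 0.0893 (Fisher's exact test over regions, p = 1.76e-13, 8.80e-13 adjusted over 5 tests). Among regions in 2 or more lists the shares were 33 of 69 (47.8%) and 33 of 35 (94.3%). Distal regions were thus split about evenly between both sides of their gene, and regions are not replicates, so the p covers counting error over regions only. Left out were 9 distal regions that overlapped the gene's RefSeq span, 55 with no strand and 10 with no match, against 66, 28 and 0 of the nearer class.

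**Figure D3:**
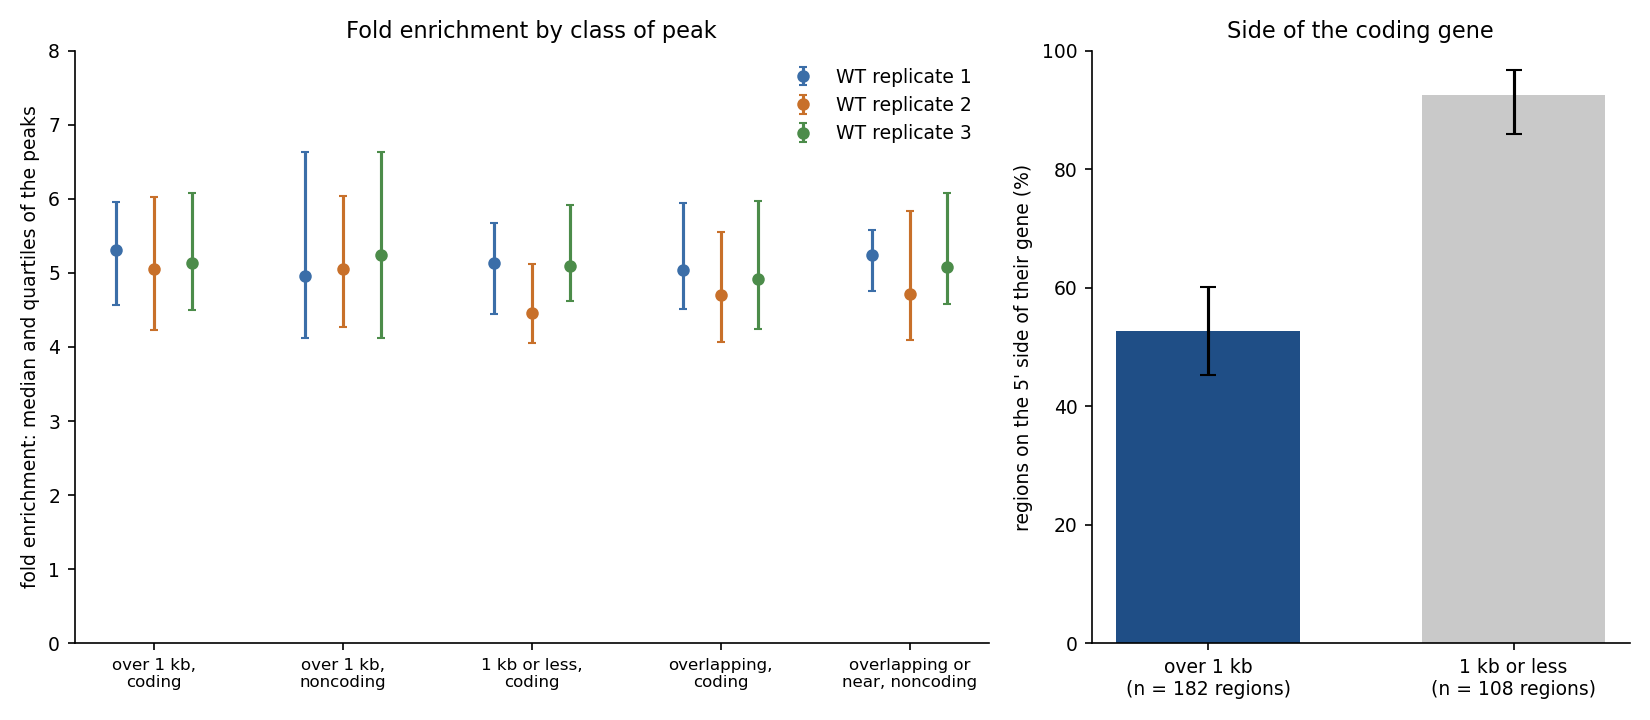
Left, median fold enrichment per WT list (points) with the quartiles of the peaks (bars), for 5 classes of peak by distance and biotype. Right, share of regions on the 5′ side of their coding gene with 95% Clopper-Pearson intervals, 52.7% for distal regions and 92.6% for those at 1 kb or less.

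No difference passed the test in how often distal regions were found again. In 2 or more lists were 101 of 256 distal regions (39.5%, 33.4 to 45.7) and 983 of 2270 others (43.3%, 41.3 to 45.4). Fisher's exact test over regions gave p = 0.258, 0.322 adjusted over the same 5 tests. All 3 lists held 39 of 256 distal regions (15.2%, 11.1 to 20.2) and 461 of 2270 others (20.3%, 18.7 to 22.02), with p = 0.0569 by the same exact test, or 0.123 adjusted. Against the 219 regions over 1 kb from a gene with no coding gene named, of which 82 (37.4%) were in 2 or more lists and 48 (21.9%) in all, the p-values of that exact test were 0.705 and 0.0740, or 0.705 and 0.123 adjusted. None of these 4 tests passed 0.05. Within lists, the share of distal peaks found in another list minus that of other peaks was -0.207, -7.77 and 8.40 percentage points in replicates 1, 2 and 3, which differ in sign (exact sign-flip permutation test over the 3 lists, two-sided p = 1).

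Median fold enrichment of distal peaks was 5.31, 5.06 and 5.13 in replicates 1, 2 and 3, and that of all other peaks 5.05, 4.72 and 4.96. Distal peaks were higher in 3 of 3 lists, by 0.257 ± 0.0835 in the mean (SD, n = 3), with an exact sign-flip permutation p of 0.25, two-sided, which is the smallest that 3 lists allow. These differences are small beside the quartiles of distal peaks, 4.57 to 5.96 in replicate 1. Against distant peaks with no coding gene the differences were 0.344, 0.00888 and -0.112, of mixed sign (exact sign-flip p = 0.75). Median widths of 270, 271 and 318 bp differed from those of other peaks by -11, -24 and 25 bp (exact sign-flip p = 1).

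The gene lists of NK biology, chosen with results of these data known, held 295 genes in 14 lists. A distal region in 1 or more lists was named for 10 of them (3.39%), against 1.09% of the 21887 protein-coding genes. In 2 or more lists there were 4 (1.36%, against 0.429%), and in all lists 2 (0.678%, against 0.16%). These few genes are given as a description. They were Fos and Batf3 of the AP-1 and other bZIP factors, Foxo3 of the lineage factors, Il21r of the cytokine receptors, Ifng of the effectors, Klrb1c, Klra9 and Slamf7 of the NK surface receptors, Bmf of cell death and Ccr2 of trafficking. The 7 lists with none were the Ikaros family, cell cycle, NF-kappa-B with EGR and NR4A, and the markers of T, B, myeloid and erythroid cells. Counts of 0 allow shares of up to 52.2% of 5, 12.3% of 28, 16.8% of 20, 19.5% of 17, 23.2% of 14, 20.6% of 16 and 26.5% of 12 genes (Clopper-Pearson).

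The list of NK surface receptors gave 1 region found in all lists and 2 found once. Klrb1c encodes NK1.1, an activating lectin-like receptor used to identify NK cells. Its region lay 17.7 kb past the gene's 3′ end (chr6:128760211-128760776), with fold enrichments of 5.10, 5.12 and 5.14 at percentiles of 50.1, 61.9 and 54.7. A separate region over the 5′ end of Klrb1c was also in all lists, at percentiles of 26.0, 84.9 and 49.0, and 2 more, at the noncoding gene Gm44511 beyond it, were in replicates 2 and 3. Klra9, an inhibitory Ly49 family receptor gene, and Slamf7, a receptor of the SLAM family, had a region in replicate 2 only, at percentiles of 49.8 and 30.0. Outside that list, and named after their values were seen, Klra2 and Klrb1f of the same receptor families also had regions. The one by Klra2, which RefSeq places inside the gene's span, stood at percentiles of 76.9 in replicate 2 and 75.3 in replicate 3, and the one by Klrb1f at 28.2 in replicate 2 only.

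Cytokine receptor genes Il4ra and Il21r, neighbours on chromosome 7 whose products both pair with the common gamma chain, had 3 distal regions in the gap between them. This was the 1 group of 3 or more among 8 groups of distal regions less than 25 kb apart. The first, 1.72 kb past the 3′ end of Il4ra (chr7:125581191-125581606), had fold enrichments of 4.87 in replicate 2 and 3.73 in replicate 3. Its percentiles were 54.6 and 5.44. The second, 9.39 kb past Il4ra (chr7:125588865-125589071), had a fold enrichment of 5.07 in replicate 2 alone, at percentile 60.4. The third, 9.20 kb upstream of Il21r (chr7:125593991-125594231), had 5.46 and 5.77 in replicates 2 and 3, at percentiles of 70.8 and 69.2. Replicate 1, the shortest list, held none of the 3.

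Fos, an immediate early AP-1 subunit, had a region 8.73 kb past its 3′ end (chr12:85486004-85487047), with fold enrichments of 5.07 in replicate 2 and 5.68 in replicate 3, at percentiles of 60.5 and 67.5. The region past Batf3, a bZIP factor of lymphoid and dendritic cells, was in replicate 2 only at percentile 44.5. Foxo3, a forkhead factor restrained by growth signals, had a region 1.31 kb upstream in replicate 3 only, at percentile 55.7. Bmf, a BH3-only promoter of cell death, and Ccr2, a chemokine receptor, had regions in replicate 2 only, at percentiles of 39.4 and 30.5. The authors' mark for transcription factor genes was set for 6 of 256 distal regions (2.34%), against 22 of 202 (10.9%) regions at 1 kb or less and 118 of 1737 (6.79%) over a coding gene. The mark is not complete, since Isl1 and Zfp521 lack it, and its difference is given as a description.

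**Figure D4:**
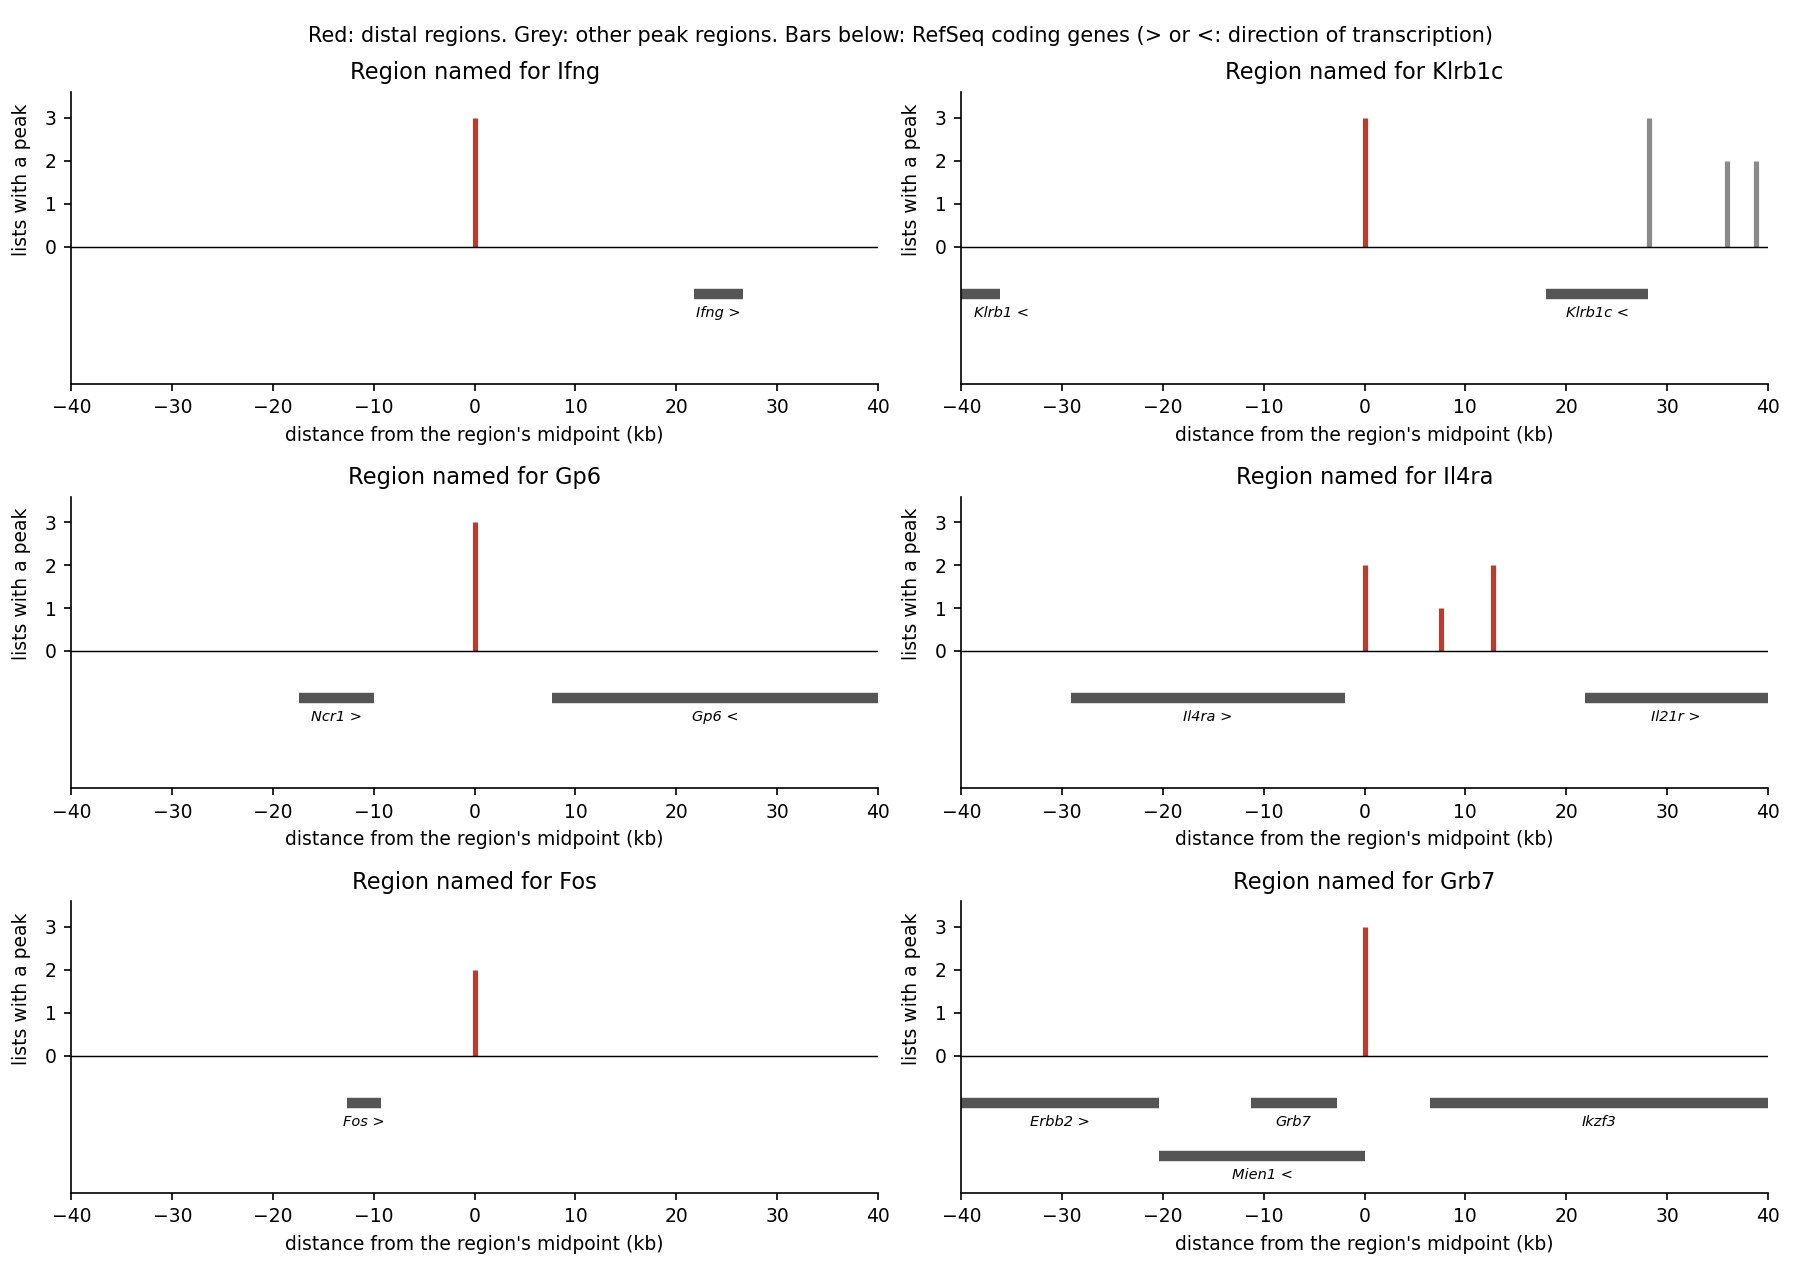
Maps of 6 loci, with the distance in kb from the midpoint of a distal region on the x axis and the number of WT lists holding a peak as the height of each line (red, distal regions; grey, other peak regions), above RefSeq coding genes. The Il4ra map shows the 3 distal regions before Il21r, and the Klrb1c map shows grey peaks at and beyond the 5′ end of the gene.

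Of the 247 genes named at distal regions, 10 had 2 regions and none had more. Tyrobp encodes DAP12, the adaptor through which several activating NK receptors signal. The nearer region, at 2.60 kb, had 4.72-fold enrichment in replicate 2 and 3.91-fold in replicate 3, at percentiles of 49.0 and 10.5. The farther one, at 18.9 kb and printed in part above, had 3.73-fold in replicate 2 alone, at percentile 10.9. The pair at Olfr750, an olfactory receptor gene, lay 1.02 kb apart over tRNA genes and stood at percentiles of 5.37 in replicate 3 and 6.24 in replicate 2. The pair at Rplp1, a ribosomal stalk protein gene, lay over 200 kb from it, and one of them, in replicate 2 only, had percentile 90.4. Others were Sfi1, Ccdc80, Dscam, Tle4, Polr3k, Edem1 and Il4ra, with 31.0 kb between the Dscam regions and 475 kb between those of Edem1.

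Of the 247 genes, 46 (18.6%, 13.97 to 24.0) also had a peak that was not distal, against 1890 of 21887 (8.64%) over all coding genes. The first share is over the authors' gene names, of which 238 matched RefSeq, and the second over RefSeq coding genes. The difference was not tested. Examples in all lists for both kinds of peak included Klrb1c alone, and Lrp2bp, Midn and Rnls had a distal region in all lists with another peak in 1 or 2.

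A further 3 regions, picked after their values were seen, lay near genes that restrain signalling or transcription. Dusp6, a phosphatase of ERK, had a region 1.31 kb upstream, at 3.89-fold in replicate 2 and 4.72-fold in replicate 3. Its percentiles were 17.5 and 39.9. Spred2, an inhibitor of the Ras pathway, had a region 3.63 kb upstream with fold enrichments of 6.56 and 5.12, at percentiles of 86.2 and 54.3. Spen, a corepressor gene, had one 7.32 kb upstream with 3.46 and 4.504, at percentiles of 3.45 and 32.2. The Spen region is printed in part above. All 3 were absent from replicate 1.

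Against the RefSeq table, 196 of the 256 regions (76.6%) overlapped no gene span, 32 (12.5%) overlapped a long noncoding RNA and 17 (6.64%) a coding gene, of which 9 were the region's own gene. The authors' annotation places all of these outside genes, so both annotations differ there. Some regions that overlapped no RefSeq coding gene still lay within 1 kb of one in that table. The region named for Actr10 lay 0.191 kb from Psma3, and the one named for C1qtnf6 lay 0.452 kb from Il2rb. A tRNA gene was overlapped by 7 distal regions (2.73%, 1.11 to 5.55) and by 10 of 2270 others (0.441%, 0.211 to 0.809), a difference noticed in the data and not tested. Among those others were 3 of 219 distant regions with no coding gene (1.37%, 0.283 to 3.95). Regions at 1 kb or less gave 2 of 202 (0.990%, 0.120 to 3.53), and those over a coding gene 4 of 1737 (0.230%). The intervals of the first 2 of these classes overlap that of distal regions. Of the 7 distal regions over a tRNA gene, 1 was found in 2 lists, the one near Zfp692 (chr11:58302090-58302316), and the other 6 in 1. Olfactory receptor genes named 6 of the 247 genes (2.43%) against 5.07% of coding genes, and Zfp genes 8 (3.24%) against 1.81%, again without a test.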

How the data were processed

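ChIP-seq of Ikaros was deposited as 1 peak list per WT library. The submitters' processing notes name MACS2, Subread, SAMtools, Picard and edgeR 3.20.0, with mm10 as the build. What each tool did, which control library and threshold served, and which gene annotation was used is not given in the sources used here. Every deposited peak has a fold enrichment, a linear ratio, and −log10 values of p and q, per the file headers, as well as a width, a distance and a biotype from the authors. From the 800, 2414 and 1595 lines of the deposited files, 1 entry per peak was kept. Peaks sharing at least 1 base were merged (Python 3.11.15, pandas 2.3.3, SciPy 1.17.1). Regions were compared with Fisher's exact test, with Benjamini-Hochberg adjustment over 5 tests, 4 of them added after the files were seen. Per-list values were compared with an exact sign-flip permutation test, two-sided, which cannot go below p = 0.25 with 3 lists. The merging and tests were checked on simulated peaks and counts, which did not model lists of unequal length or dependence between regions. Gene positions came from RefSeq, of whose genes 238 of 247 named ones matched. The authors' files hold no read counts, so library depth is unknown, and Clopper-Pearson intervals at 95% cover counting error over regions only. Named genes were the 15 regions highest by mean percentile in all lists, list members in 2 or more lists, the 5 nearest and 5 farthest regions in all lists, genes with 2 regions, and the 15 highest of each list; other names were added after their values were seen. Members and lists were chosen with earlier results of these data known. A few regions are not reported here. Chromosome 18 has no start windows in the table used here.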

Additional observations from a re-analysis of the deposited data

How the results depend on the processing

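Distal regions numbered 107 (46 in 2 or more lists) with peaks of −log10 q of 5 or more and 27 (14) at 10 or more. At a distance over 10 kb there were 132 (55). With the same number of peaks per list, an alternative chosen after seeing the data, there were 118 (57). Leaving out 1 list gave 125 to 250 regions in all and 41 to 85 in 2 or more lists. A required overlap of 50% of the shorter peak gave 257 and 100. The share in 2 or more lists minus that of other regions stayed negative, at -6.47 to -1.32 percentage points, in the 9 alternatives run, with no p under 0.05. The median difference in fold enrichment, as a mean over lists, stayed positive in its 9 alternatives, from 0.0274 with −log10 q of 5 or more to 0.385, the latter in units of −log10 p. Distal peaks were higher in only 2 of 3 lists with −log10 q of 5 or more. The same held for peaks of regions in 2 or more lists. The difference in median width reversed from -3.33 bp to 7.67 bp with peaks of regions in 2 or more lists, and lay between -17.5 and 7 bp without 1 list. The cause of these changes was not tested. A search for motifs in all regions was planned and left out, because it needs the genome's sequence. No paired analysis was possible because the peak lists cover 1 group only. Library depth is unknown, so absence from a list and too few reads cannot be told apart.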
